A study of Mus musculus with 9 samples.

Results

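A set of 9 genes that B lymphocytes use to sense antigen, homing and survival signals was followed through normal, fibrotic and nanozyme-group mouse lung. They are Cd79a, Cd79b, Ms4a1, Cd22, Fcer2a, Cxcr5, Blnk, Tnfrsf13b and Tnfrsf13c. The members were chosen by gene symbol from a list drawn up with earlier results of the same data in view, so their group differences are descriptions and carry no test of their own. All 9 were among the 25526 names of the deposited expression table, and all 9 passed the filter on low values that left 14540 genes to test. RNA was taken from whole lung of 3 mice in each of 3 groups, 9 libraries in all, and sequenced after selection of polyadenylated RNA. The study asked how PepNzymeSOD-CAT, described in the series title as an inhalable self-assembled polypeptide nanozyme, acts in pulmonary fibrosis. The normal group was labelled only as normal and the model group only as a pulmonary fibrosis model. The nanozyme group was labelled only PepNzymeSOD-CAT, and whether its mice also received the fibrosis model is not given in the sources used here. The strain, age and sex of the mice, the agent that induced fibrosis, the doses and the times are likewise not given in the sources used here. The library names of the nanozyme group are numbered apart from those of the other groups, and no batch is stated, so any handling difference and the treatment cannot be told apart.

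The B cell antigen receptor is a membrane immunoglobulin that has almost no cytoplasmic tail, and it signals through the paired chains encoded by Cd79a and Cd79b. Adaptor and inhibitory proteins set the strength of that signal, while receptors for the cytokines BAFF and APRIL keep mature B cells alive. Lung tissue holds few B cells at rest, and in chronically inflamed lung they can gather with T cells in lymphoid aggregates. Several of the 9 genes are not exclusive to B cells. Blnk is used in macrophages, and Fcer2a and Tnfrsf13b are also known from myeloid cells.

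Promoter sequence is shown for the 4 genes whose windows carried a searched motif or whose levels stood apart from the others. RefSeq promoter windows, from 250 bases before to 50 bases after a start site on build GRCm38.p6, were found for 6 of the 9 genes in 8 windows. Cd79b, Ms4a1 and Cxcr5 had none in the table used. Both strands were searched for the octamer ATTTGCAT bound by OCT factors, the core TCCCNNGGG of early B cell factor, and the core GAGGAA of PU.1. Each sequence below runs 5′ to 3′ on the strand of its gene and has the matched motif in capitals. All but that of Blnk leave out annotated exons of the gene.
Cd79a, chr7:24897247-24897380, plus strand: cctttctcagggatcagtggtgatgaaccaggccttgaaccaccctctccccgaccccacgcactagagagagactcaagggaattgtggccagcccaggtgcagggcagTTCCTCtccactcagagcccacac
Cd22, chr7:30879029-30879176, minus strand: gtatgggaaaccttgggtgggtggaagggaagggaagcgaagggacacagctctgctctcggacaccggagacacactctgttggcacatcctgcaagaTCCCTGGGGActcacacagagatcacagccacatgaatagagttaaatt
Blnk, chr19:40994333-40994362, minus strand: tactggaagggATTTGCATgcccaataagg
Fcer2a, chr8:3694176-3694424, minus strand: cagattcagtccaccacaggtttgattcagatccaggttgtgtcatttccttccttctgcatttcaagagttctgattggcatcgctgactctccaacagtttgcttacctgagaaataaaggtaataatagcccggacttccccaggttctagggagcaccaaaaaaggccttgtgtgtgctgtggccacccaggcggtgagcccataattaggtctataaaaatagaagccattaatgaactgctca
The Cd79a match is the PU.1 core read on the reverse strand, with its first base 140 bases before the start site. In Cd22 the capitals cover 2 overlapping matches of the early B cell factor core, 1 on each strand. The first of them is 49 bases before the RefSeq start. The Cd22 stretch lies within the GENCODE span of the gene, 30865402 to 30880342, so it is not upstream of the whole gene. The Blnk octamer begins 130 bases before the RefSeq start, inside an exon of Blnk in the GENCODE annotation, so only 30 bases are printed. The Fcer2a stretch held none of the 3 motifs. Each motif was present in 1 of the 8 windows of the 9 genes. Among all 32851 windows, 1.74% held the octamer, 6.56% the early B cell factor core and 28.3% the PU.1 core. A match is a run of letters and does not show a binding site.

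The deposited values are FPKM, fragment counts scaled by transcript length and library size, which carry no read depth, so counting error cannot be given. Column sums lay between 443746 and 519772 FPKM. Nanozyme replicate 2 stood apart from the other nanozyme libraries. On the first principal component of all tested genes it scored 43.3, inside the model range of 39.5 to 61.2, against -14.4 and -9.68 for nanozyme replicates 1 and 3 and -63.5 to -54.8 for the normal libraries. Results are therefore given with and without that library where it matters. Differences below are of group means of log2(FPKM + 1), with a standard error from a limma fit of all 9 libraries, and a gene passed the test at a Benjamini-Hochberg adjusted p under 0.05 over all 14540 genes. Adding 1 understates the change of genes with low FPKM. Permuting 3 mice against 3 exactly gives no p under 0.10 for any 1 gene.

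The signalling chains of the antigen receptor were at like levels in normal and model lung and high in 2 of the 3 nanozyme libraries. Cd79a (chromosome 7, 24897381 to 24902197, plus strand, GRCm38) encodes the alpha chain. It was at 11.4, 15.5 and 14.02 FPKM in normal lung, 17.8, 12.2 and 16.1 in model lung, and 57.8, 18.4 and 51.8 in nanozyme lung. Nanozyme replicates 1 and 3 were above every other library, and nanozyme replicate 2 was just above the highest model library. The group means were 13.6 ± 2.07, 15.4 ± 2.87 and 42.6 ± 21.2 FPKM (SD, n = 3 each). Cd79b (chromosome 11, 106311341 to 106314762, minus strand) encodes the beta chain. Its levels were 22.6, 31.3 and 26.4 FPKM in normal lung, 24.8, 20.8 and 21.7 in model lung, and 86.6, 24.4 and 71.0 in nanozyme lung. Again nanozyme replicates 1 and 3 were the highest, while nanozyme replicate 2 lay within the model range and the normal and model groups overlapped. The log2 difference between model and normal was 0.16 ± 0.38 for Cd79a and -0.23 ± 0.40 for Cd79b. Between nanozyme and model it was 1.27 ± 0.38 and 1.21 ± 0.40, and between nanozyme and normal 1.43 ± 0.38 and 0.98 ± 0.40. Because whole lung was measured, a different number of B cells and a different amount of RNA per B cell cannot be told apart here or in any result that follows. The ratio of Cd79a to Cd79b within a library was 0.506, 0.496 and 0.530 in normal lung, 0.718, 0.587 and 0.742 in model lung, and 0.667, 0.754 and 0.729 in nanozyme lung. All 6 model and nanozyme ratios lay above the 3 normal ones.

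Ms4a1, the gene of the B cell surface protein CD20, showed the same split within the nanozyme group, and Cd22 and Fcer2a did not share its model pattern. Ms4a1 (chromosome 19, 11249675 to 11266241, minus strand) was at 5.67, 7.05 and 7.22 FPKM in normal lung, 5.62, 6.15 and 6.24 in model lung, and 39.4, 7.31 and 27.1 in nanozyme lung. Nanozyme replicate 1 was 5.40 times and replicate 3 was 3.72 times replicate 2, and the normal and model groups overlapped. The difference was -0.12 ± 0.49 between model and normal, turning to 0.01 when columns were scaled by median of ratios, and 1.60 ± 0.49 between nanozyme and model. Cd22 (chromosome 7, 30865402 to 30880342, minus strand) encodes a sialic acid-binding receptor that recruits phosphatases and dampens the antigen receptor. It was at 2.55, 3.38 and 3.59 FPKM in normal lung, 6.49, 4.37 and 7.61 in model lung, and 17.9, 8.01 and 14.5 in nanozyme lung. The 3 groups did not overlap, with normal lowest and nanozyme highest. The mean of model lung was 1.94 times that of normal lung, a difference of 0.76 ± 0.28, and the differences were 0.98 ± 0.28 between nanozyme and model and 1.74 ± 0.28 between nanozyme and normal.

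Fcer2a, the gene of the low-affinity IgE receptor CD23, was the exception among the 9. Fcer2a (chromosome 8, 3681737 to 3694175, minus strand) was at 3.20, 3.57 and 3.67 FPKM in normal lung, 16.6, 12.9 and 15.4 in model lung, and 9.90, 16.4 and 9.58 in nanozyme lung. Every model and nanozyme library was above every normal one, and nanozyme replicates 1 and 3 were the lower 2 of the 6, at 0.604 and 0.585 times nanozyme replicate 2. The group means were 3.48 ± 0.247, 14.98 ± 1.88 and 11.9 ± 3.83 FPKM (SD, n = 3 each). The difference was 1.83 ± 0.19 between model and normal, -0.34 ± 0.19 between nanozyme and model, and 1.49 ± 0.19 between nanozyme and normal. Within a library the ratio of Fcer2a to Cd79a was 0.280, 0.230 and 0.262 in normal lung, 0.929, 1.06 and 0.960 in model lung, and 0.171, 0.891 and 0.185 in nanozyme lung. Model libraries and nanozyme replicate 2 were near 1, and nanozyme replicates 1 and 3 were below all 3 normal libraries on this ratio.

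The signalling adaptor and the homing receptor were higher in model than in normal lung and higher again in nanozyme replicates 1 and 3. Blnk (chromosome 19, 40928927 to 40994535, minus strand) encodes the adaptor that links Syk to downstream enzymes. It was at 2.64, 3.23 and 3.10 FPKM in normal lung, 6.57, 5.97 and 5.56 in model lung, and 11.8, 6.51 and 9.64 in nanozyme lung. Normal and model libraries did not overlap, and nanozyme replicate 2 lay within the model range. The model mean was 2.02 times the normal mean, with differences of 0.82 ± 0.19 between model and normal, 0.52 ± 0.19 between nanozyme and model, and 1.34 ± 0.19 between nanozyme and normal. Cxcr5 (chromosome 9, 44511787 to 44561877, minus strand) encodes the receptor for the chemokine CXCL13. It was at 2.01, 2.66 and 1.89 FPKM in normal lung, 3.503, 3.498 and 3.23 in model lung, and 10.9, 3.74 and 7.30 in nanozyme lung. The groups did not overlap, though nanozyme replicate 2 was only just above the model libraries. Differences were 0.48 ± 0.29, 0.82 ± 0.29 and 1.29 ± 0.29 in the same order of comparisons. Cxcr5 lies opposite the protein-coding gene Bcl9l, and Ms4a1, Cd22 and Tnfrsf13b overlap other annotated genes on the opposite strand. The strand setting of the counting is not given in the sources used here, so the values of these 4 genes are uncertain.

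The receptors for BAFF and APRIL differed from each other. Tnfrsf13b (chromosome 11, 61126755 to 61149372, plus strand) encodes TACI, which binds both ligands. It was at 2.35, 3.44 and 3.08 FPKM in normal lung, 7.25, 6.55 and 5.82 in model lung, and 12.96, 6.62 and 10.3 in nanozyme lung. Normal libraries were below all others, and nanozyme replicate 2 was within the model range. The differences were 0.94 ± 0.22 between model and normal, 0.50 ± 0.22 between nanozyme and model, and 1.44 ± 0.22 between nanozyme and normal. Tnfrsf13c (chromosome 15, 82221743 to 82224369, minus strand) encodes the BAFF receptor itself, which mature B cells need to survive. It was at 0.983, 1.84 and 1.53 FPKM in normal lung, 2.08, 1.68 and 2.23 in model lung, and 7.95, 1.88 and 4.44 in nanozyme lung. Normal and model groups overlapped, and nanozyme replicates 1 and 3 were the 2 highest libraries. The differences were 0.30 ± 0.36, 0.80 ± 0.36 and 1.10 ± 0.36. The ratio of Tnfrsf13c to Tnfrsf13b within a library was 0.418, 0.537 and 0.496 in normal lung, 0.287, 0.256 and 0.384 in model lung, and 0.613, 0.285 and 0.432 in nanozyme lung. All 3 model libraries were below all 3 normal ones on this ratio.

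**Figure D1:**
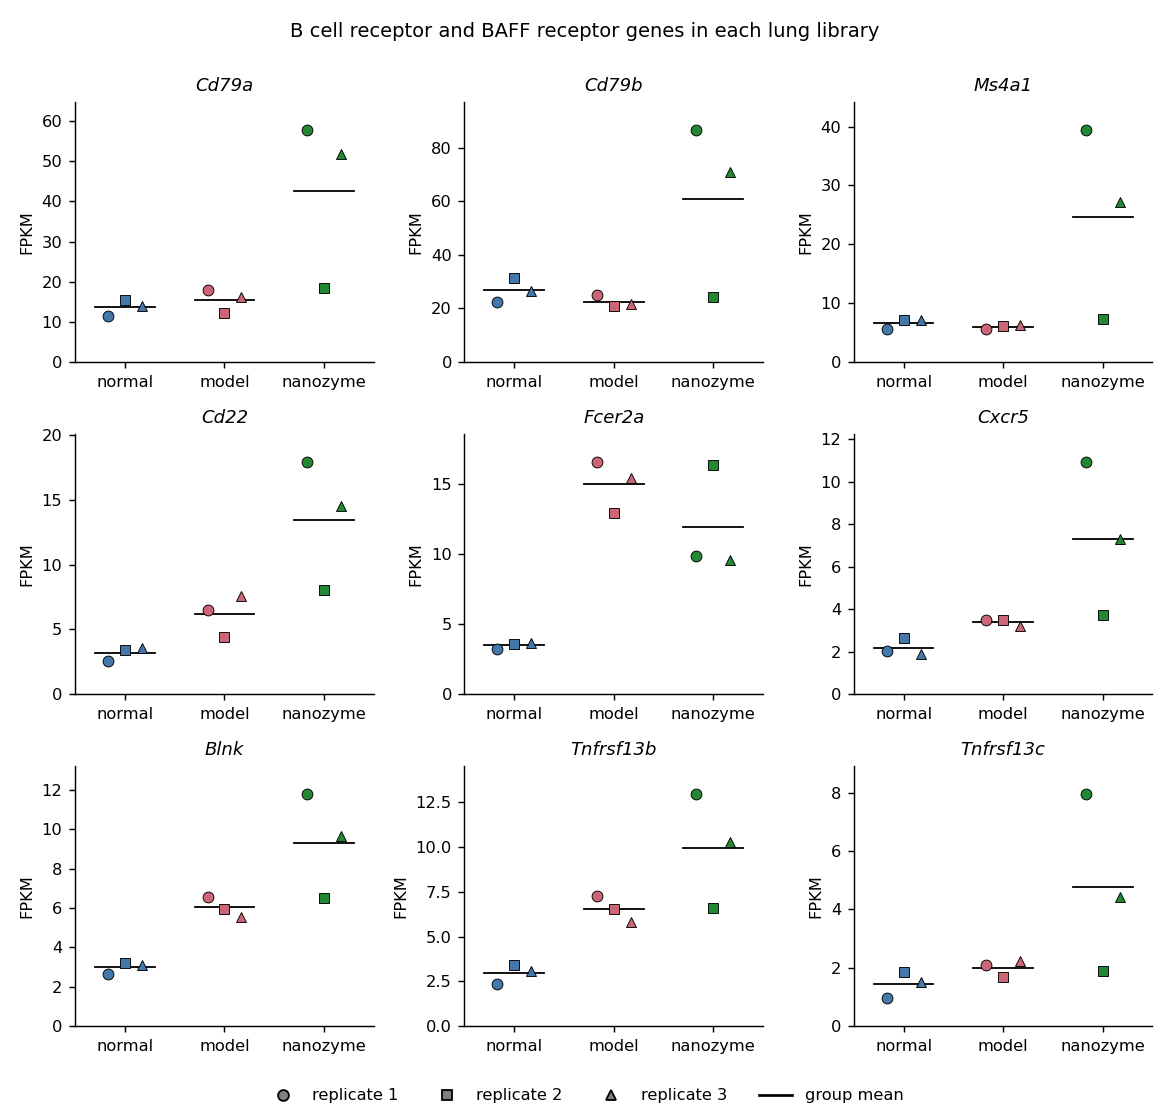
FPKM of each of the 9 genes in each library (y axis, by group on the x axis), with group means as lines. In 8 of the 9 panels nanozyme replicates 1 and 3 are the 2 highest libraries, and in Fcer2a they lie below the model libraries.

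Taking the 9 genes by count, 8 had nanozyme replicates 1 and 3 both above the other 7 libraries, all but Fcer2a. The same held for 9.97% of all tested genes. Nanozyme replicate 2 lay within the range of the model libraries for 5 of the 9, namely Cd79b, Fcer2a, Blnk, Tnfrsf13b and Tnfrsf13c, and for 64.9% of all tested genes. In the comparison of model with normal, 3 of the 9 passed the test as higher, Fcer2a, Blnk and Tnfrsf13b, and none as lower. Of all tested genes 17.4% passed as higher and 22.7% as lower, 40.1% in all. Of the passing genes 43.4% were higher, and 55.5%, 54.2% and 32.7% were under median-of-ratios scaling, equal column sums and scaling without the 100 most abundant genes. Those 3 calls held in all 19 alternatives. Cd22 did not pass but did in 8 of 19 alternatives, and Cxcr5 did in 2 of 18. Both passed in the fit without nanozyme replicate 2. Groups did not overlap for 5 of the 9, all higher in model lung, against 23.5% of all genes higher and 34.9% lower. The median difference of the 9 was 0.48, against -0.12 for all tested genes.

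In the comparison of nanozyme with model, none of the 9 passed the limma test, and 0 of the 14540 genes did, 0% of them. At an unadjusted p under 0.05, 6 of the 9 were higher and none lower, beside 13.4% of all genes higher and 8.68% lower. Groups did not overlap for 4 of the 9, Cd79a, Ms4a1, Cd22 and Cxcr5, all higher in nanozyme lung, against 10.6% of all genes higher and 5.83% lower. The median difference was 0.82, against 0.09 for all genes. Without nanozyme replicate 2, all 9 passed, 8 as higher and Fcer2a as lower, beside 12.4% of genes higher and 9.50% lower. Each library was left out in turn, but this one is singled out because it resembles the model libraries, so leaving it out favours a difference between nanozyme and model and these counts are a description and no support for one. The same holds for every count given without nanozyme replicate 2. The 2 nanozyme libraries left in that fit are assumed to vary like the other groups.

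In the comparison of nanozyme with normal, 6 of the 9 passed as higher, beside 8.39% of all genes higher and 5.50% lower, 13.9% in all. Of the passing genes 60.4% were higher, and 70.5%, 47.2% and 46.8% were under equal column sums, scaling without the 100 most abundant genes and quantile normalization. They were Cd79a, Cd22, Fcer2a, Cxcr5, Blnk and Tnfrsf13b. Groups did not overlap for 8 of the 9, all but Cd79b and all higher, against 22.1% of all genes higher and 20.8% lower. The median difference was 1.43, against -0.01 for all genes. The call of Cd79a ended in 11 of 19 alternatives, where its adjusted p from limma reached 0.146, and that of Cxcr5 in 4 of 18. Those of Cd22, Fcer2a, Blnk and Tnfrsf13b held in all 19. Without nanozyme replicate 2 all 9 passed, all as higher, beside 9.24% of genes higher and 4.27% lower. The comparisons share libraries in pairs, so they are not independent of each other.

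**Figure D2:**
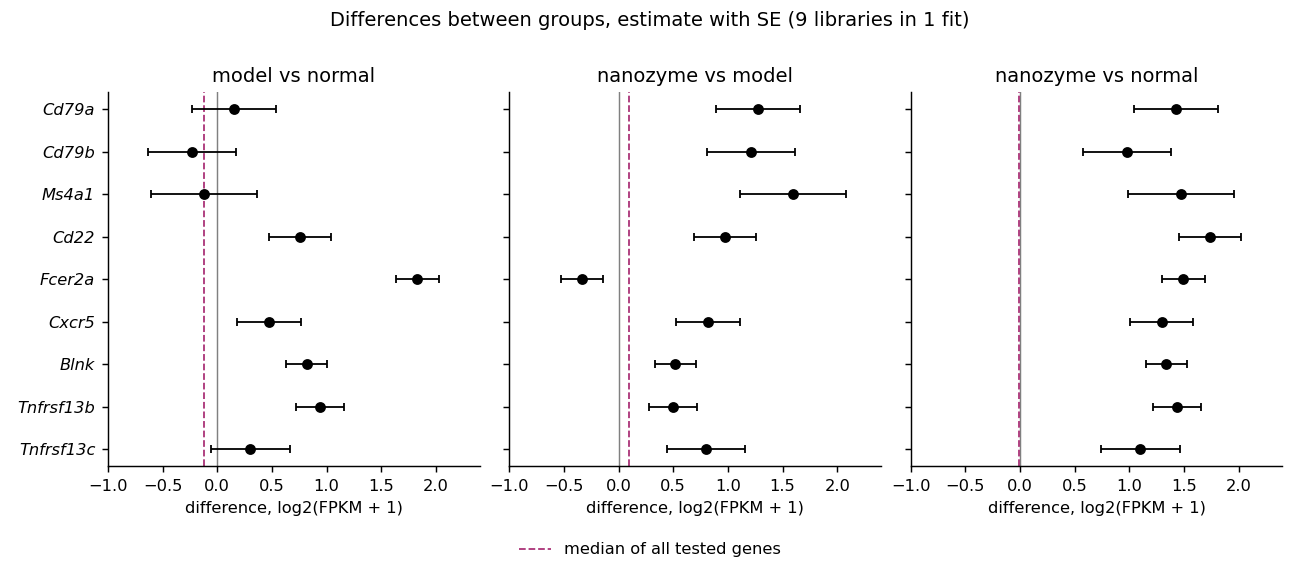
Difference of group means of log2(FPKM + 1) for each of the 9 genes in the 3 comparisons, with standard errors from the limma fit and a dashed line at the median of all tested genes. Fcer2a is the gene with a positive difference of 1.83 between model and normal and a negative one of -0.34 between nanozyme and model.

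FPKM is a length-scaled level, so the 9 genes can be ordered. In normal lung the order from high to low was Cd79b, Cd79a, Ms4a1, Fcer2a, Cd22, Blnk, Tnfrsf13b, Cxcr5 and Tnfrsf13c. Fcer2a and Cd22, Cd22 and Blnk, Blnk and Tnfrsf13b, and Tnfrsf13b and Cxcr5 overlapped between neighbours, 4 of the 8 pairs. In model lung it was Cd79b, Cd79a, Fcer2a, Tnfrsf13b, Cd22, Blnk, Ms4a1, Cxcr5 and Tnfrsf13c. Fcer2a there overlapped Cd79a, and Tnfrsf13b, Cd22, Blnk and Ms4a1 overlapped in a chain, again 4 of the 8 pairs. In nanozyme lung it was Cd79b, Cd79a, Ms4a1, Cd22, Fcer2a, Tnfrsf13b, Blnk, Cxcr5 and Tnfrsf13c, and all 8 neighbouring pairs overlapped. Cd79b was the highest and Tnfrsf13c the lowest of the 9 group means in all 3 groups.

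Ptprc, the leukocyte common antigen CD45 and 1 of the 8 pan-leukocyte genes listed, was used to set these levels against leukocyte RNA. It was at 18.1, 22.7 and 22.0 FPKM in normal lung, 80.3, 94.0 and 105.6 in model lung, and 63.5, 86.8 and 67.6 in nanozyme lung. It rose between normal and model by 2.10 ± 0.16 (limma, adjusted p = 0.000163). Per Ptprc, Cd79a was at 0.632, 0.682 and 0.638 in normal lung, 0.222, 0.130 and 0.152 in model lung, and 0.911, 0.212 and 0.766 in nanozyme lung. Ms4a1 was at 0.313, 0.310 and 0.328, then 0.0700, 0.0654 and 0.0591, then 0.621, 0.0842 and 0.402. On both ratios all model libraries and nanozyme replicate 2 were below all normal libraries, and nanozyme replicates 1 and 3 were above them. For Cd79a the latter also held against every other pan-leukocyte gene of the list except Rac2, though only narrowly against Arhgdib. Rac2, of the same list, was at 12.6, 15.3 and 12.9 FPKM in normal lung and 58.6 and 57.3 in nanozyme replicates 1 and 3. Set against Rac2, neither of these 2 libraries was above all normal ones for Cd79a. Cd79b per Ptprc was at 1.25, 1.38 and 1.203 in normal lung, 0.309, 0.222 and 0.206 in model lung, and 1.36, 0.281 and 1.05 in nanozyme lung, where replicate 1 was within the normal range and replicate 3 below it. Fcer2a per Ptprc differed between groups by less than the spread within them, with means of 0.167 ± 0.00998, 0.163 ± 0.0377 and 0.162 ± 0.0241 (SD, n = 3 each).

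**Figure D3:**
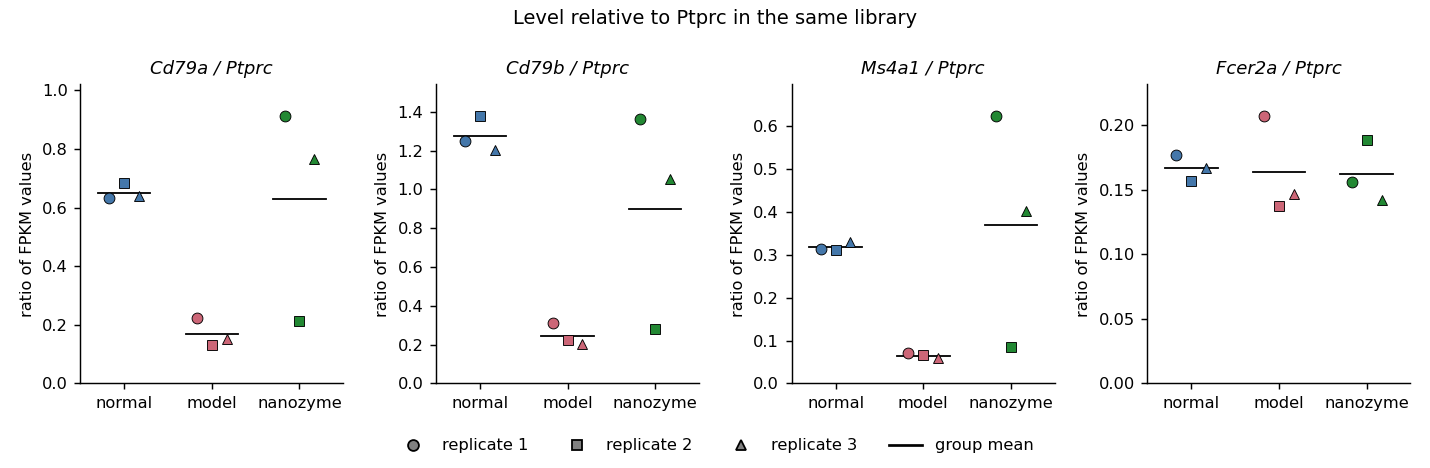
FPKM of Cd79a, Cd79b, Ms4a1 and Fcer2a divided by that of Ptprc in the same library (y axis), by group, with lines at group means. For Cd79a, the 3 model libraries lie between 0.130 and 0.222, below the normal libraries at 0.632 to 0.682, and nanozyme replicates 1 and 3 are at 0.911 and 0.766.

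Other markers of B cells were summed to see how they stood beside the 9 genes. Of 19 listed markers 17 were in the table and all 17 were tested. Summed, the 17 came to 338.1 to 638.2 FPKM in normal lung, 283.9 to 494.0 in model lung and 364.4 to 424.0 in nanozyme lung, and these ranges overlapped. Most of that was Cd24a, which lung epithelium also expresses. Without Cd24a the other 16 came to 96.3 to 102.1 FPKM in normal lung, 104.2 to 125.3 in model lung and 131.5 to 232.8 in nanozyme lung. These 3 ranges did not overlap, but the gap between normal and model did not hold without Cd37. That gene was at 9.49, 10.6 and 12.6 FPKM in normal lung and 36.5, 34.5 and 34.1 in model lung. With Cd37 also left out, the normal and model ranges overlapped, and the nanozyme range stayed above both. Between model and normal 3 of the 17 rose and 1 fell, close to the 17.4% of all genes for those that rose, and the list's median difference was 0.06, against -0.12 for all genes. The one that fell was Vpreb3, a surrogate light chain gene of precursor B cells, by 1.95 ± 0.36 on the log2 scale (limma, adjusted p = 0.00422). Between nanozyme and normal 6 of the 17 rose, beside 8.39% of all genes, with a median of 0.80. Between nanozyme and model none of the 17 passed the limma test, and the median was 0.83. At an unadjusted p under 0.05, 13 were higher and 1 lower there, beside 13.4% and 8.68% of all genes. Without nanozyme replicate 2, 12 were higher and 1 lower, beside 12.4% and 9.50%.

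Plasma cell genes, which mark antibody-secreting cells, were split: 4 of the 7 in the table, Jchain, Mzb1, Derl3 and Tnfrsf17, had their 2 highest libraries in nanozyme replicates 1 and 3, and Sdc1, Xbp1 and Prdm1 did not. Of all tested genes, 9.97% had those 2 libraries above the other 7. Of 13 listed plasma cell genes, 7 were in the table, and the absent ones were all immunoglobulin genes. Of the 6 tested, 1 rose between model and normal and 1 between nanozyme and normal, beside 17.4% and 8.39% of all genes. No plasma cell gene passed the limma test between nanozyme and model. At an unadjusted p under 0.05, 2 were higher, beside 13.4% of all genes. Without nanozyme replicate 2, 3 passed as higher, beside 12.4%. The 7 summed to 196.5 to 217.1 FPKM in normal lung, 207.3 to 242.6 in model lung and 226.3 to 410.0 in nanozyme lung. Without Xbp1 they came to 108.9 to 123.0 FPKM in normal lung, 97.1 to 110.7 in model lung and 96.4 to 283.6 in nanozyme lung. Jchain, the joining chain of secreted IgM and IgA, was at 3.47, 6.19 and 4.61 FPKM in normal lung, 2.60, 7.93 and 3.16 in model lung, and 143.1, 3.69 and 31.1 in nanozyme lung. Mzb1, a chaperone of antibody assembly, was at 6.27, 4.76 and 5.75, then 4.70, 5.53 and 3.497, then 43.2, 5.09 and 23.1. The plasma cell genes other than Tnfrsf17 are named after their values were seen. Neither Jchain nor Mzb1 passed the test in any comparison. Jchain in nanozyme replicate 1 was 38.7 times and in replicate 3 was 8.43 times its level in replicate 2. Tnfrsf17, the gene of the receptor BCMA on plasma cells, was at 0.178, 0.148 and 0.267 FPKM in normal lung, was listed at 0 in all model libraries, and was at 1.35, 0 and 1.11 in nanozyme lung. It did not pass the filter on low values. Sdc1, the plasma cell surface proteoglycan that lung epithelium also makes, was at 86.6, 83.8 and 88.5 FPKM in nanozyme lung and highest in normal lung. Xbp1, a factor of the secretory pathway, was at 126.4, 129.9 and 108.8 FPKM in nanozyme lung, highest in replicate 2. Prdm1, the plasma cell regulator BLIMP-1, was at 3.49 FPKM in model replicate 3, above its 2.93 in nanozyme replicate 3.

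**Figure D4:**
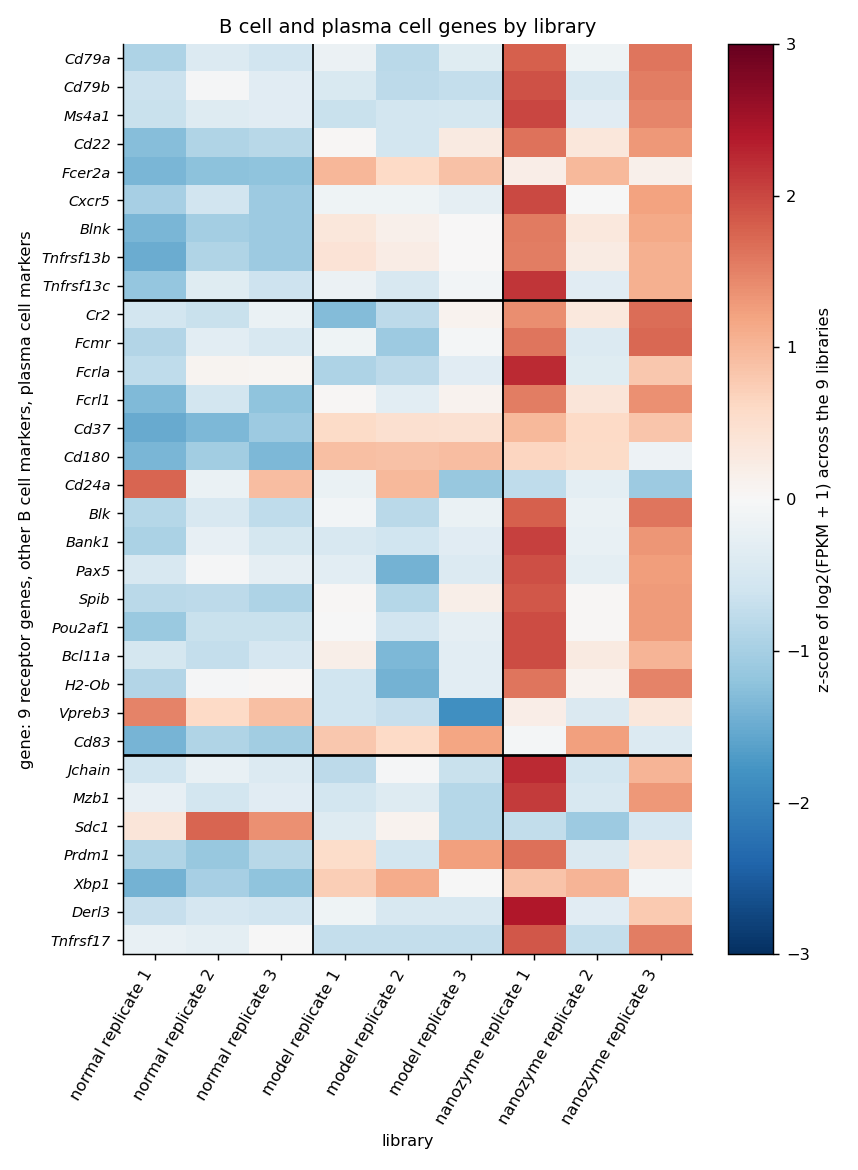
Level of the 9 genes, other B cell markers and plasma cell markers in each of the 9 libraries, as z-scores of log2(FPKM + 1) within a gene. Nanozyme replicates 1 and 3 have the highest values in 8 of the 9 receptor genes, all but Fcer2a, while Vpreb3 and Sdc1 are highest in normal libraries.

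Other cell types moved as well, and their part in the levels of the 9 genes was not tested. Macrophage and monocyte markers without Lyz2 summed to 167.5 to 188.3 FPKM in normal lung, 1135 to 1483 in model lung and 657.1 to 1121 in nanozyme lung. In the model 11 of 12 rose, and 9 of 12 rose between nanozyme and normal. Of all genes 17.4% and 8.39% rose in these 2 comparisons. Neutrophil markers came to 56.2 to 339.7, 2566 to 3486 and 1157 to 3342 FPKM, and 9 of 10 rose in both comparisons with normal. T cell markers came to 35.3 to 44.3, 66.7 to 83.5 and 73.0 to 102.1 FPKM, and 6 of 12 rose in both. Without Cd2, which had the same split in nanozyme lung at 28.4, 10.5 and 28.5 FPKM, they came to 26.6 to 33.8, 56.0 to 72.2 and 49.1 to 73.6 FPKM. Dendritic cell markers came to 30.5 to 35.9, 43.0 to 55.0 and 34.1 to 61.7 FPKM, with 1 of 7 higher and 1 lower in both. Without Itgax, which macrophages also express, they came to 24.9 to 29.6, 15.9 to 22.9 and 20.6 to 22.5 FPKM. These sums were lower in all model and nanozyme libraries than in normal ones, but this rested on Cd209a. It was at 8.88, 9.10 and 7.72 FPKM in normal lung and no higher than 0.718 in any other library. With Cd209a also left out, the ranges of the groups overlapped. Lymph node and thymus genes came to 59.5 to 76.3, 51.4 to 61.5 and 72.0 to 98.6 FPKM, mostly Ccl21a. Without it they came to 3.08 to 4.67, 6.06 to 7.09 and 8.41 to 12.1 FPKM. Most of that remainder was Cd8b1, also listed as a T cell marker, at 2.15 to 3.08, 5.38 to 6.09 and 7.29 to 9.63 FPKM. Of the lymph node and thymus genes, Glycam1 and Rag2 were listed at 0 in all 9 libraries, and Madcam1 in all but 1. Pan-leukocyte genes came to 271.8 to 353.3, 1349 to 2041 and 944.3 to 1550 FPKM, and 8 of 8 rose in both comparisons with normal. In nanozyme against model lung no gene of any of these lists passed the limma test. At an unadjusted p under 0.05, 2 macrophage genes were higher and 9 lower, and 4 neutrophil and 4 pan-leukocyte genes were lower. At the same level 2 T cell, 1 dendritic cell and 3 lymph node and thymus genes were higher. Of all genes 13.4% were higher and 8.68% lower there.

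Many enzymes and adaptors downstream of the antigen receptor are shared with myeloid cells, and part of the list rose in the model. Of 24 listed and tested, 14 rose between model and normal and none fell, beside 17.4% and 22.7% of all genes, and the median difference was 0.74. The kinase Syk rose by 2.77 ± 0.22 (limma, adjusted p = 0.00018), the phospholipase Plcg2 by 1.87 ± 0.15 (adjusted p = 0.000194), the kinase Btk by 1.84 ± 0.20 (adjusted p = 0.000533) and the adaptor Sh3bp2 by 2.81 ± 0.31 (adjusted p = 0.000617). Among those that did not pass, Cd81 differed by -0.47 ± 0.18 and the kinase Fyn by 0.08 ± 0.17. Blk, Bank1 and Cr2, also listed as B cell markers, did not pass either, at 0.26 ± 0.36, 0.07 ± 0.33 and -0.07 ± 0.19. Between nanozyme and normal 14 of 24 rose and none fell, beside 8.39% and 5.50% of all genes, with a median of 1.16. That count was 8 without normal replicate 1 and 7 without normal replicate 3. There the kinase Prkcb rose by 1.48 ± 0.22 (limma, adjusted p = 0.00432). Of the 24, none passed the limma test between nanozyme and model. At an unadjusted p under 0.05, 7 were higher and 8 lower, beside 13.4% and 8.68% of all genes. Without nanozyme replicate 2, 6 were higher and 8 lower, beside 12.4% and 9.50%.

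Inhibitory receptors and phosphatases, which restrain receptor signals, rose for 9 of 12 between model and normal and for 9 of 12 between nanozyme and normal. The medians were 1.72 and 1.53, and none fell. Of all genes 17.4% and 8.39% rose in these 2 comparisons. In the model Inpp5d, the lipid phosphatase SHIP1, rose by 1.45 ± 0.10 (limma, adjusted p = 0.000134). Ptpn22 rose by 1.31 ± 0.11 (adjusted p = 0.000207), Cd72 by 2.44 ± 0.21 (adjusted p = 0.000234) and Ptpn6, the phosphatase SHP-1 that the CD22 protein recruits, by 2.497 ± 0.21 (adjusted p = 0.000242). Siglecg, a B cell relative of Cd22, did not pass, at 0.20 ± 0.36. In the nanozyme comparison with model none of 12 passed the limma test. At an unadjusted p under 0.05, 0 were higher and 7 lower, beside 13.4% and 8.68% of all genes. Without nanozyme replicate 2, 1 was higher and 6 lower, beside 12.4% and 9.50%.

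The BAFF and APRIL pathway rose in part. The median difference between model and normal was 0.43. Of 11 tested of 12 listed, 5 rose and none fell, beside 17.4% and 22.7% of all genes. That count was 3 without normal replicate 3 or model replicate 1, and 3 higher and 1 lower when scaled without the 100 most abundant genes. Among them were Birc3, an inhibitor of apoptosis that regulates the pathway, by 1.83 ± 0.30 (limma, adjusted p = 0.00267), the noncanonical NF-kB subunit Nfkb2 by 2.07 ± 0.34 (adjusted p = 0.00297) and its partner Relb by 1.81 ± 0.31 (adjusted p = 0.00346). The ligand BAFF, Tnfsf13b, was at 3.42, 5.59 and 3.35 FPKM in normal lung, 5.94, 6.90 and 8.05 in model lung, and 5.72, 8.02 and 10.9 in nanozyme lung. Its normal libraries lay below all others, but it missed the threshold in the limma fit at 0.66 ± 0.24 (adjusted p = 0.0578) between model and normal. APRIL, Tnfsf13, was at 1.53, 2.01 and 1.91, then 2.71, 2.07 and 3.65, then 3.22, 4.71 and 3.93 FPKM. Beside 8.39% of all genes that rose and 5.50% that fell, 1 gene of the list rose between nanozyme and normal and 1 fell. They were Tnfsf13, by 0.81 ± 0.18 (limma, adjusted p = 0.0235), and Chuk, the kinase IKK-alpha, which fell by 0.58 ± 0.12 on the log2 scale (adjusted p = 0.0174). Between nanozyme and model none passed the limma test. At an unadjusted p under 0.05, 0 were higher and 3 lower, beside 13.4% and 8.68% of all genes. Without nanozyme replicate 2, 5 passed as lower, beside 9.50%.

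Genes of homing and lymphoid tissue, which draw B cells together, rose for 12 of 17 between model and normal and fell for none. Of all genes 17.4% rose and 22.7% fell, and the median difference of the list was 1.13. Cxcl13, the ligand of Cxcr5, was at 2.80, 2.15 and 2.24 FPKM in normal lung, 101.0, 166.0 and 122.1 in model lung, and 49.2, 89.9 and 17.4 in nanozyme lung. Its groups did not overlap and its highest libraries were in the model, whereas Cxcr5 itself was highest in nanozyme replicates 1 and 3. Cxcl13 rose by 5.24 ± 0.49 between model and normal (limma, adjusted p = 0.000328) and by 3.69 ± 0.49 between nanozyme and normal (adjusted p = 0.00289), and differed by -1.55 ± 0.49 between nanozyme and model (adjusted p = 0.182). Lymphotoxin beta, Ltb, rose by 1.15 ± 0.16 in the model (limma, adjusted p = 0.00156), Ch25h by 3.06 ± 0.45 (adjusted p = 0.00191) and Cxcl12 by 1.94 ± 0.29 (adjusted p = 0.00195). Ccl21a did not pass, at -0.42 ± 0.16. Between nanozyme and normal 7 of 17 rose, beside 8.39% of all genes. Of the 17, 4 did so without any 1 of the 3 normal libraries or with no filter. None passed the limma test between nanozyme and model. At an unadjusted p under 0.05, 1 was higher and 6 lower, beside 13.4% and 8.68% of all genes. In the test without nanozyme replicate 2, 1 was higher and 7 lower, beside 12.4% and 9.50%.

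**Figure D5:**
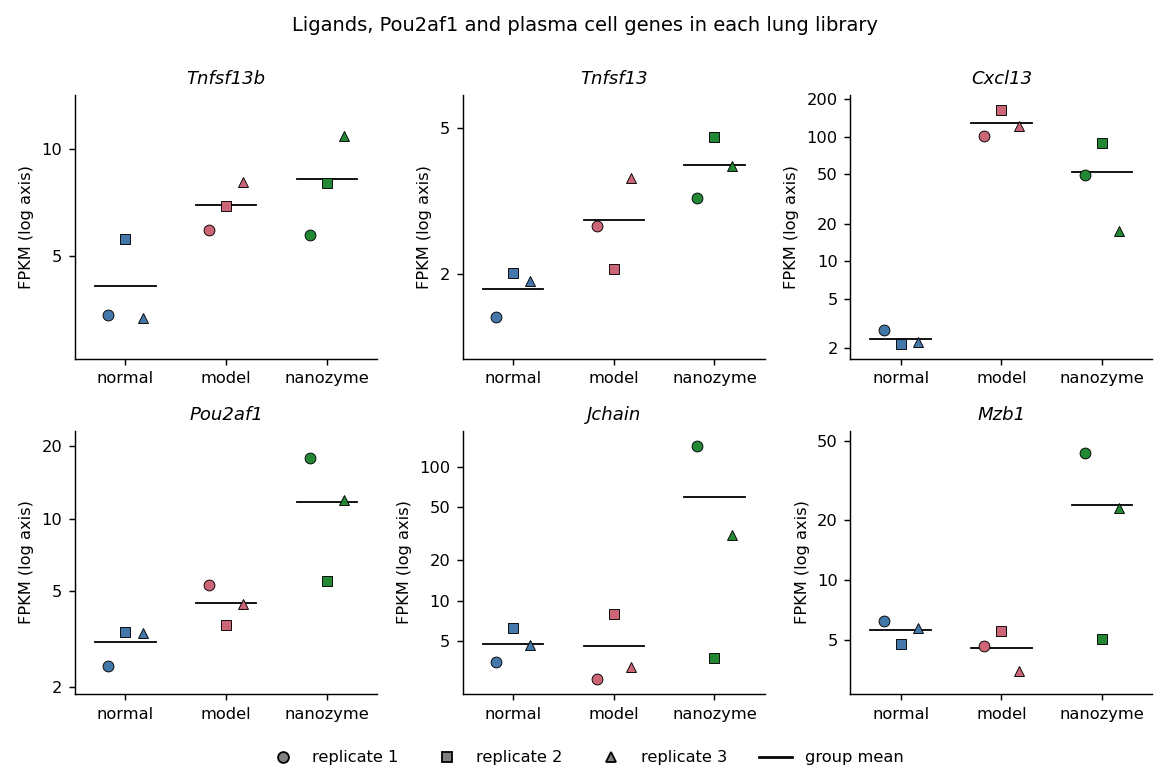
FPKM (log axis) of Tnfsf13b, Tnfsf13, Cxcl13, Pou2af1, Jchain and Mzb1 in each library by group, with lines at group means. Cxcl13 is highest in the 3 model libraries, at 101.0 to 166.0, while Pou2af1, Jchain and Mzb1 are highest in nanozyme replicates 1 and 3.

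Among B cell transcription factors the median difference between model and normal was 0.12. Of the 15, 4 rose and none fell, beside 17.4% and 22.7% of all genes. Spi1, which encodes PU.1 and is also the main myeloid factor, rose by 3.05 ± 0.27 (limma, adjusted p = 0.000273). Pou2f2, which encodes OCT2, rose by 1.81 ± 0.18 (adjusted p = 0.000396). The others were Irf8 by 1.36 ± 0.38 (adjusted p = 0.0229) and Ikzf3 by 0.83 ± 0.26 (adjusted p = 0.034). The number that rose was 2 without normal replicate 3, without model replicate 3, or among genes with a mean of at least 5 FPKM. Between nanozyme and normal 5 of 15 rose, beside 8.39% of all genes, with a median of 0.69. The number that rose was 3 without normal replicate 1, normal replicate 3 or nanozyme replicate 3. Without nanozyme replicate 2, 8 rose and 1 fell, beside 9.24% and 4.27% of all genes. Pou2af1, the B cell coactivator of OCT factors, was among those that rose, by 1.53 ± 0.34 (limma, adjusted p = 0.0227). Between nanozyme and model none passed the limma test. At an unadjusted p under 0.05, 5 were higher and 3 lower, beside 13.4% and 8.68% of all genes. In that comparison without nanozyme replicate 2, 9 were higher and 1 lower, beside 12.4% and 9.50%.

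How closely the 9 genes moved with each other was described by Pearson's r over the 9 libraries between each gene and the mean z-score of the other 8. These points share libraries, and 2 of them, nanozyme replicates 1 and 3, are far from the rest. Cxcr5 had an r of 0.981, Cd22 0.971, Blnk 0.95, Tnfrsf13c 0.95, Tnfrsf13b 0.939 and Cd79a 0.936. Ms4a1 was at 0.865, Cd79b at 0.814 and Fcer2a at 0.405. Over the 7 libraries without nanozyme replicates 1 and 3, Fcer2a was at 0.92, Blnk at 0.957 and Tnfrsf13b at 0.956. Cd79a was at 0.72 and Ms4a1 at -0.013 there, and no value over these 7 libraries is given for Cd79b. Outside the 9, the gene most like their mean was Pou2af1, with an r of 0.988 over 9 libraries and 0.95 over 7. The next were Pf4 at 0.978, Fcrl1 at 0.978, Cd300e at 0.976, Pik3ip1 at 0.968, Spib at 0.964, Susd1 at 0.964, Ubl7 at 0.964, Cytip at 0.963 and Glud1 at 0.96.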

How the data were processed

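Lung RNA from 9 mice, 3 per group, was sequenced as polyadenylated RNA with second-strand marking, per the labels' protocols. The authors deposited 1 table of FPKM values, and the submitters' processing notes name HISAT2 and GRCm38. The annotation, counting tool, strand setting and versions are not given in the sources used here. Groups came from sample titles. Values were tested as log2(FPKM + 1) with limma 3.58.1 in R 4.3.3, 1 coefficient per group and an intensity trend, two-sided, for genes at 1 FPKM or more in at least 3 libraries (14540 of 25526), with Benjamini-Hochberg adjustment at 0.05. The fit was tested on simulated data. The 9 genes, the lists and the ratios were chosen with earlier results of these data known. Pathway genes were named by a rule: per list and comparison, up to 4 passing genes with the smallest adjusted p and up to 3 others with the highest mean, plus the ligands and Tnfrsf17. Blk, Bank1 and Cr2 are named outside the rule, after their values were seen. Positions came from GENCODE vM21 and promoters from RefSeq. Alternatives changed the pseudocount, filter, scaling, libraries fitted, moderation, block and each library left out. Predicted genes and generic names (3626 of the names) stayed in the tests and are not named. Of the list genes that this rule selects, 1 is not reported here.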

Additional observations from a re-analysis of the deposited data

How the results depend on the processing

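The count of passing genes was within 1.5 times the reported one in 47 alternatives over the 3 comparisons and beyond it in 10. Signs were checked for the named genes only, and none of their passing differences changed sign. The number of genes passing between model and normal was 5824 and ranged from 3754 to 6546 when 1 library was left out. Of the 9 genes 3 passed, 5 when only the 2 groups compared were fitted, and 3 to 5 with 1 library left out. Between nanozyme and model 0 genes passed, 4 with no filter, and 0 to 3167 with 1 library left out, the highest without nanozyme replicate 2. Of the 9 genes 0 passed, and 0 to 9 with 1 library left out, while their median difference of 0.82 ranged from 0.51 to 1.22. Between nanozyme and normal 2020 genes passed, 1285 with a mean of at least 5 FPKM, and 734 to 2264 with 1 library left out, the lowest without normal replicate 3. Of the 9 genes 6 passed, and 4 to 9 with 1 library left out. No pairing of the mice by replicate number was seen: over 9 same-numbered pairs r ran from -0.331 to 0.227. Differently numbered pairs ran from -0.358 to 0.385. Deviations from a group mean are tied to each other, so these values cannot exclude pairing. With the replicate block 5628, 0 and 1734 genes passed in the 3 comparisons, and 4, 0 and 6 of the 9 genes. Median of ratios moved the median of all genes by 0.13 between model and normal. The causes were not tested. No depth is known from FPKM.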
